A study of Mus musculus with 15 samples.

Results

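The 10 genes Fos, Fosb, Fosl1, Fosl2, Jun, Junb, Jund, Egr1, Atf3 and Ier3 were described in 4T1 cells, a mouse mammary carcinoma line widely used as a model of triple-negative breast cancer. They were taken by symbol from a table of 40402 genes and were chosen by the level of Fos with blackberry nanoparticles against untreated cells, which was high in earlier results of the same data. The first 9 encode basic leucine zipper or zinc finger transcription factors of the early stress and growth factor response, and Ier3 encodes an early response protein tied to cell survival. Bulk RNA-seq had been made of untreated wild-type 4T1 cells and of cells given blackberry extract (BLA), blueberry extract (BLU), or gold nanoparticles made with each berry (BLA-A and BLU-A). Treatment began 24 hours after seeding, and the labels used here give neither a dose nor a harvest time. No library of gold particles without berry, or of vehicle, was analysed here.

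AP-1 is a dimer of a Fos and a Jun protein, or of either with an ATF protein, that binds DNA and switches on genes of growth, invasion and wound repair. Many of its genes, Fos among them, are transcribed within minutes of a growth factor signal or a stress, without new protein being made first. Their mRNAs are short-lived. Kinase cascades (ERK, JNK and p38) act both on the promoters of these genes and on the proteins themselves. Egr1 is a zinc finger factor of the same early wave, and ATF3 is induced by many kinds of stress, including amino acid shortage and DNA damage.

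Each condition had 3 labelled columns of counts, but the 3 columns agreed more closely than counting alone would let separate samples agree. Their chi-square per degree of freedom was 0.0951 to 0.475, where separate draws of the same RNA would give about 1 and separate cultures more. They were therefore averaged and counted as 1 sample, as they differed by less than sampling noise, so each condition is 1 library, each treatment has no replicate check, and intervals cover counting error only. The labels also give every column a batch date of its own, in order of condition, so that date and condition cannot be told apart. Library totals ran from 25613778 to 26956442 counts. Keratin 8 and 18, Epcam and Cdh1 were present in all 5 libraries, and Krt14 stayed under 1 CPM. The 6 epithelial markers summed to 1052 CPM in untreated cells, 819 with BLA, 853 with BLU, 1441 with BLA-A and 936 with BLU-A. Against the direction of that sum, Epcam was lower in BLA-A, at 39.7 CPM against 68.9 in untreated cells. Krt8, Krt18, Cdh1 and Krt19 were higher there, Krt19 at 45.0 CPM against 11.5. The 5 leukocyte markers summed to 1.04 to 4.54 CPM and the 3 endothelial ones to 1.77 to 4.06. The 5 fibroblast markers summed to 88.2 to 103.6 CPM, nearly all of it Pdgfra, with Col1a1, Col1a2, Pdgfrb and Dcn each under 2 CPM in every library, and the 2 adipocyte ones to 0 to 0.679. The BLA-A library stood apart in its scaling, with a TMM factor of 0.905 against 1.01 to 1.03 in the others. Its share of counts on Gm26917, a long noncoding RNA, was 7.84% against 4.55% to 6.40%. The part of these values in the results was not tested.

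The promoters of these genes are shown because AP-1 and CREB/ATF factors are known to act on several of them. The sequences are RefSeq's on GRCm38.p6, 5′ to 3′ on the strand of the gene, and they hold the 250 bases before the annotated start (for Ier3 the first 200 of them). RefSeq windows were found for 8 of the 10 genes, all but Fosl1 and Egr1. The Jund window lies upstream of the start that GENCODE gives, and those of Fosl2 and Atf3 lie inside the longest span of the gene. Capitals mark TGACG on either strand (the core of the cyclic AMP response element, read CGTCA on the other strand), TGACATCA (the AP-1 and ATF site known from Jun) and CCAAT. The Fosl2 and Jund windows hold none of these motifs and are not printed. Fos lies at chr12:85473640-85473889 (plus strand) and Fosb at chr7:19310046-19310295 (minus strand). Junb lies at chr8:84978749-84978998 (minus strand), Atf3 at chr1:191183334-191183583 (minus strand), Jun at chr4:95052223-95052472 (minus strand) and Ier3 at chr17:35821463-35821662 (plus strand).
Fos: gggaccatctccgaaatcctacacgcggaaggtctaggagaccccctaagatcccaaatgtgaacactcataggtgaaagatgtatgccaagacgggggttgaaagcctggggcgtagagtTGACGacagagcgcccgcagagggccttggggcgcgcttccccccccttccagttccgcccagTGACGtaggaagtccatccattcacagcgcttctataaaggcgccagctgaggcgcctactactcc
Fosb: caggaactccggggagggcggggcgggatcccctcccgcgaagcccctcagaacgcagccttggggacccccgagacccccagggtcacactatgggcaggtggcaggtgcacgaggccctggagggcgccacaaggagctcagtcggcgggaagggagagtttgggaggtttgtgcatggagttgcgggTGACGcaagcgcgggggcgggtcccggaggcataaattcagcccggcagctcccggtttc
Junb: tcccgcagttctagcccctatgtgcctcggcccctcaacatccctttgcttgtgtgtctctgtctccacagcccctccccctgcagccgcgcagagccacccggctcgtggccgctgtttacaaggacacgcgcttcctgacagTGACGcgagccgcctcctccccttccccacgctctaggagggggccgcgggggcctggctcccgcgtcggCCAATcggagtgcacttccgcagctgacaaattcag
Atf3: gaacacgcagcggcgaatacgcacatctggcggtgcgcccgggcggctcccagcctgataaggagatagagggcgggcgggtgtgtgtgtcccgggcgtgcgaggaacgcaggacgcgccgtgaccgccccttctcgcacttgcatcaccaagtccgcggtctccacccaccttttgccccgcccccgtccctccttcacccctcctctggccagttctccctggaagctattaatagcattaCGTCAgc
Jun: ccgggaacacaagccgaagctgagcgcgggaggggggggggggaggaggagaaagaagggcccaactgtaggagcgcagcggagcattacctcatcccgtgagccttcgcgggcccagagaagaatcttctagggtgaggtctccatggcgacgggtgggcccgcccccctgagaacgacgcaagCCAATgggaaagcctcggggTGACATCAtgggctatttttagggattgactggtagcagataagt
Ier3: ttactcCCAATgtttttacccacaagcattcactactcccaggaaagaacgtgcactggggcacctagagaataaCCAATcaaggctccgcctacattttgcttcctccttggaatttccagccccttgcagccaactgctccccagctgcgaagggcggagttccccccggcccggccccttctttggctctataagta

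TGACG occurred in 4 of the 8 windows, against 17.8% of 32851 promoters of the same length, not matched for base composition. In Fos it lay 129 to 125 and 66 to 62 bases before the start, in Fosb 60 to 56, in Junb 106 to 102, and in Atf3 on the opposite strand 7 to 3 bases before it. TGACATCA was in the Jun window only, 45 to 38 bases before the start, and in 2.93% of all promoters. CCAAT was in Jun, Junb and Ier3 and in 33.8% of all promoters, and Ier3 held it at 2 places, 244 to 240 and 175 to 171 bases before the start. TATAAA was in Fos, 33 to 28 bases before the start, and in 12.4% of promoters. None of the 8 windows held TGACTCA (4.46% of promoters), TGACGTCA (1.55%, a motif that contains TGACG), GCGTGGGCG (0.536%) or a CArG box (1.47%). All motifs were searched on both strands. Bases farther upstream than these windows, and the promoters of Fosl1 and Egr1, were not searched. These are matches of letters, and no binding was measured.

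All 10 genes passed the filter on low counts, and each had more than 12 CPM in every library. Levels between genes were compared as CPM per kilobase of exon, a scale on which intronic reads also count. In untreated cells Fosl1 and Ier3 led, at 110 each with overlapping counting intervals. Jun followed at 98.5 and Jund at 85.3, then Egr1 at 46.8, Junb at 39.6 and Atf3 at 17.7. Fosb at 7.84 and Fosl2 at 7.50 had overlapping intervals, and Fos was the lowest at 5.60. In BLA-A the order was led by Ier3 at 706, followed by Jund at 254, Fosl1 at 130, Junb at 122, Jun at 108 and Egr1 at 103. Atf3 at 59.6, Fos at 26.5, Fosl2 at 17.8 and Fosb at 14.7 came last. Fos thus stayed among the 3 genes with the lowest level per length in both libraries.

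**Figure D1:**
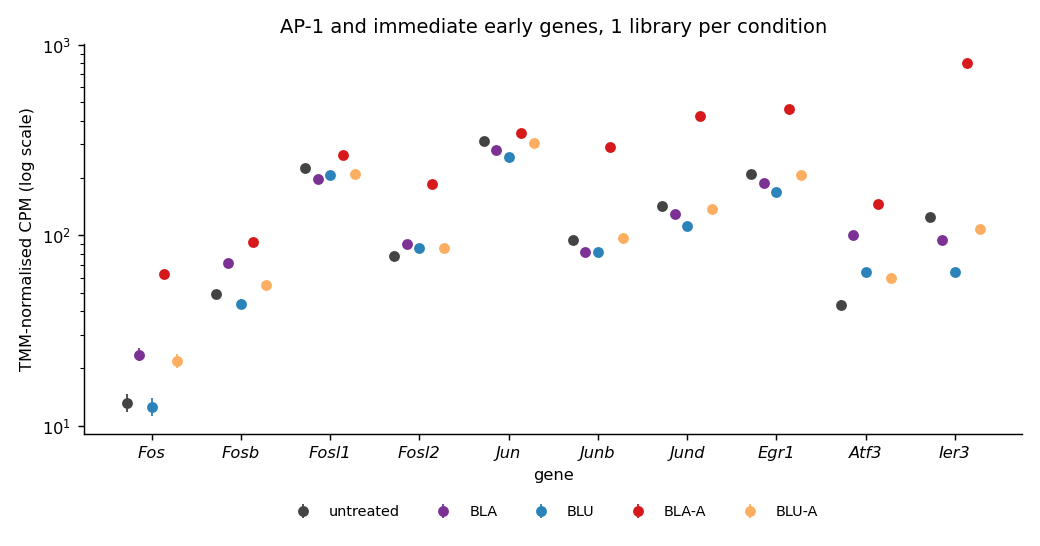
Level of each of the 10 genes in the 5 libraries, in TMM-normalized CPM (log axis), 1 point per library with its 95% counting interval as a line where that is larger than the point. The BLA-A point is the highest for every gene, from 62.4 CPM for Fos to 804 CPM for Ier3, and in Jun and Fosl1 it lies close to the other points.

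CPM here is the count scaled by the TMM-adjusted library total. The first question is how the genes stood with each treatment. A log2 fold change was taken on TMM CPM + 0.5, and a gene was counted as higher or lower past a log2 fold change of 1. With BLA-A, 7 of the 10 genes were higher past the threshold and 0 lower, where 8.54% of the 17647 genes tested were higher and 20.9% passed in either direction. Among the 9765 genes with a mean of at least 10 CPM, which include all 10, 7.86% were higher. The genes had been chosen with that comparison known, so these counts are a description and no test is given. In bulk RNA, fewer cells with a transcript and less of it per cell cannot be told apart. Their median log2 fold change was 1.41, from 0.13 for Jun to 2.68 for Ier3, and the median of all genes was -0.01. Just inside the threshold lay Egr1 at 1.13, and just outside it Fosb at 0.90. BLA-A was the highest of the 5 libraries for 10 of the 10 genes, a rank it held for 29.3% of all genes and for 38.3% of those with a mean of at least 10 CPM. With scaling by total counts Jun left this group, at -0.06 in BLA-A against untreated cells.

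With the other treatments the counts were low. BLA put 1 gene, Atf3, past the threshold, where 7.92% of genes were higher and 16.5% passed in either direction, and 3.61% of those with a mean of at least 10 CPM were higher. BLU put 0 of the 10 past it, beside 10.3% of all genes in either direction, 5.66% higher and 1.99% higher of those with a mean of at least 10 CPM. BLU-A also put 0 past it, beside 7.85% of all genes in either direction, 3.35% higher and 0.758% higher of those with a mean of at least 10 CPM. The median log2 fold change of the 10 genes was -0.15 with BLA, -0.19 with BLU and 0.02 with BLU-A. With BLU, 8 of the 10 were below untreated cells, and with BLA 6 were, where the median of all genes was -0.01 with each. Short genes as a class were also lower in both. Relative to the median of coding genes of like span, only Egr1 (-0.06) and Ier3 (-0.48) were lower with BLU, and none with BLA. The 4 comparisons share the untreated library, so a value that was by chance high or low there enters all of them.

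**Figure D2:**
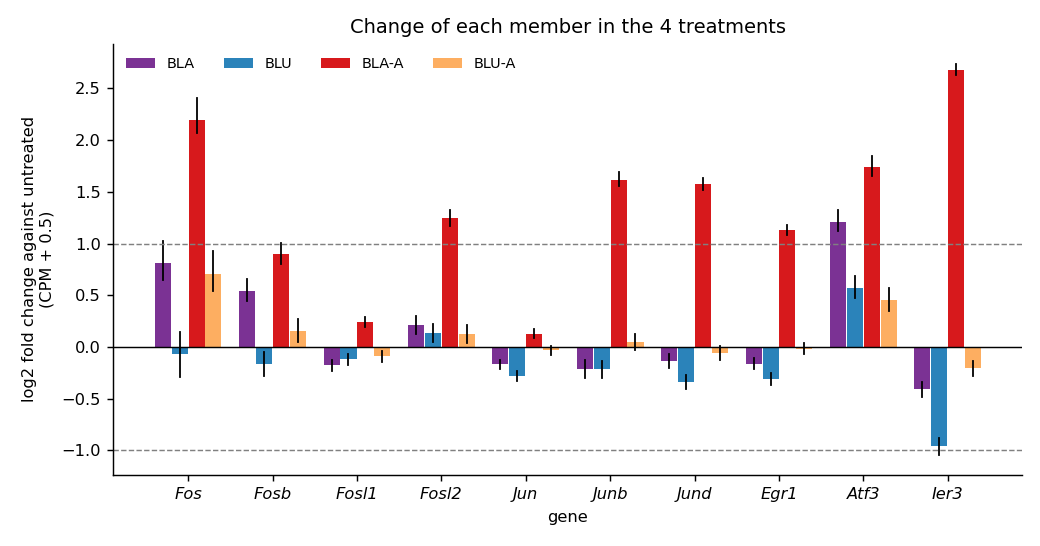
Log2 fold change (CPM + 0.5) of each gene in the 4 treatments against the untreated library (bars), with exact 95% counting intervals as thin lines and dashed lines at a log2 fold change of 1 in either direction. In BLA-A 7 genes lie above the upper line, Atf3 lies above it in BLA at 1.21, and no gene passes a line in BLU or BLU-A.

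Of the Fos family, Fos itself encodes the classical partner of Jun and is the textbook immediate early gene. It lies on GRCm39 at chr12:85520658-85524047 on the plus strand. Fos was at 13.2 CPM in untreated cells, 23.6 with BLA, 12.6 with BLU, 62.4 with BLA-A and 21.9 with BLU-A. BLU was level with untreated cells, BLA and BLU-A were close to each other, and BLA-A stood clear of the rest. Fos was 4.59-fold higher in BLA-A, a log2 fold change of 2.20 (95% counting interval 2.07 to 2.41), and 0.759% of genes had a higher value. It was 0.81 with BLA (0.65 to 1.03), -0.07 with BLU (-0.29 to 0.15) and 0.71 with BLU-A (0.54 to 0.93). Behind these values were 352 counts in the untreated library and 1447 in BLA-A, the fewest of the 10 genes in both, so its intervals are the widest.

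Fosb, which encodes a Fos relative with a long and a short splice form, was at 49.0 CPM in untreated cells, 71.7 with BLA, 43.7 with BLU, 91.7 with BLA-A and 54.6 with BLU-A. Like Fos it was higher with both blackberry treatments than with blueberry extract, but its span was narrower. The log2 fold change was 0.55 in BLA (0.45 to 0.65) and 0.90 in BLA-A (0.81 to 1.01), and neither passed the threshold. In BLU it was -0.16 (-0.28 to -0.05) and in BLU-A 0.16 (0.05 to 0.27). Gene-level counts do not separate the splice forms.

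Fosl1 and Fosl2 encode FRA-1 and FRA-2, Fos relatives that lack the strong activation domain of Fos, and FRA-1 is known for its high level in invasive breast cancer lines. Fosl1 was at 224 CPM in untreated cells, 199 with BLA, 206 with BLU, 265 with BLA-A and 211 with BLU-A. Its 5 values lay close together, with log2 fold changes from -0.18 in BLA to 0.24 in BLA-A. Part of the gene overlaps Ccdc85b on the other strand. Fosl2, Jun, Junb, Jund, Atf3 and Ier3 also overlap annotated genes on the other strand, in the case of Junb with Prdx2. What these overlaps add to the counts was not tested. Fosl2 was at 78.0 CPM in untreated cells, 90.2 with BLA, 85.7 with BLU, 185 with BLA-A and 85.3 with BLU-A. It was thus slightly above untreated cells with 3 treatments and 2.37-fold higher in BLA-A, a log2 fold change of 1.24 (1.17 to 1.32), and 5.34% of genes had a higher value.

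Of the Jun family, Jun encodes the main partner of the Fos proteins and is a single-exon gene at chr4:94937271-94940459 on the minus strand of GRCm39. Jun was at 314 CPM in untreated cells, 280 with BLA, 259 with BLU, 343 with BLA-A and 307 with BLU-A. It differed least of the 10 genes in BLA-A, at a log2 fold change of 0.13 (0.08 to 0.17), and 41.7% of all genes had a higher value. With total-count scaling this value was -0.06, so its direction depends on the scaling.

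Junb, whose protein is a weaker activator than Jun and often opposes it, lies at chr8:85701113-85705359 on the minus strand of GRCm39. Junb was at 94.2 CPM in untreated cells, 81.3 with BLA, 81.2 with BLU, 290 with BLA-A and 97.4 with BLU-A. Jund, whose protein is known to be present in most cells at rest and to slow growth, is a single-exon gene at chr8:71151599-71153265 on the plus strand. Jund was at 142 CPM in untreated cells, 130 with BLA, 112 with BLU, 424 with BLA-A and 137 with BLU-A. Both genes thus had 4 libraries near one level and the BLA-A library far above it. The log2 fold change in BLA-A was 1.62 for Junb (1.55 to 1.69), with 2.43% of genes higher. It was 1.57 for Jund (1.52 to 1.63), with 2.65% of genes higher. In BLA and BLU both were slightly lower, at -0.21 and -0.21 for Junb and -0.13 and -0.34 for Jund. Of the 3 Jun genes, then, Junb and Jund passed the threshold in BLA-A and Jun did not.

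Egr1, an early zinc finger factor and a regulator of growth and stress genes, was at 210 CPM in untreated cells, 188 with BLA, 169 with BLU, 461 with BLA-A and 208 with BLU-A. The untreated and BLU-A libraries were level and both plain extracts were below them. Egr1 was 2.19-fold higher in BLA-A, a log2 fold change of 1.13 (1.09 to 1.18), and 6.60% of genes were higher. Scaled by total counts it was at 0.94, under the threshold.

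Atf3 encodes a stress-induced ATF protein that pairs with Jun proteins and can act as a repressor. It lies at chr1:190902493-190950241 on the minus strand of GRCm39, the longest span of the 10 genes at 47749 bases. Atf3 was at 43.2 CPM in untreated cells, 101 with BLA, 64.4 with BLU, 146 with BLA-A and 59.4 with BLU-A. Every treated library was above the untreated one, and both blackberry libraries were above both blueberry libraries. The log2 fold change was 1.21 with BLA (1.12 to 1.32), 0.57 with BLU (0.47 to 0.69), 1.74 with BLA-A (1.66 to 1.85) and 0.46 with BLU-A (0.35 to 0.57). In BLA it was the one gene of the 10 past the threshold, and 4.86% of genes were higher there. Atf3 and Fosl2 were the 2 genes above untreated cells by more than the counting interval in all 4 treatments, though for Fosl2 the values outside BLA-A were only 0.13 to 0.21.

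Ier3, also known as IEX-1, encodes a small early response protein that is tied to survival and to the ERK and NF-κB pathways and is not part of AP-1. Its gene is short, at chr17:36132568-36133815 on the plus strand of GRCm39. Ier3 was at 125 CPM in untreated cells, 94.0 with BLA, 64.1 with BLU, 804 with BLA-A and 108 with BLU-A. It was the lowest in BLU and the highest in BLA-A, the widest range of the 10 genes. It was 6.42-fold higher in BLA-A, a log2 fold change of 2.68 (2.63 to 2.74), and ranked 53 of 17647 genes. In BLU it was just short of the threshold at -0.96 (-1.05 to -0.88), and 94.9% of genes had a higher value. It was -0.41 in BLA (-0.48 to -0.34) and -0.21 in BLU-A (-0.28 to -0.13).

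The second question is whether the nanoparticle form differed from the plain extract of the same berry. For blackberry, 6 of the 10 genes were higher in BLA-A than in BLA past the threshold and 0 lower, where 11.5% of all genes were higher and 24.5% passed in either direction. Of genes with a mean of at least 10 CPM 11.6% were higher. The 6 were Ier3 at 3.09 (3.04 to 3.16), Junb at 1.83, Jund at 1.71, Fos at 1.39, Egr1 at 1.29 and Fosl2 at 1.03. With scaling by total counts Fosl2 fell short, leaving 5, and relative to the median of genes of like span only Ier3 and Junb passed, leaving 2. Atf3, which was past the threshold with the plain extract too, was at 0.53 (0.46 to 0.60). For blueberry, 0 of the 10 passed, beside 6.76% of all genes in either direction, 2.87% higher and 0.287% higher of those with a mean of at least 10 CPM. The values ran from -0.12 for Atf3 to 0.78 for Fos. The median over the 10 genes was 1.16 for blackberry and 0.27 for blueberry, beside -0.08 and -0.02 over all genes. Coding genes spanning up to 2500 bases had medians of 0.91 for blackberry and 0.32 for blueberry. For Fos the nanoparticle was above its extract in both berries, by 1.39 (1.27 to 1.54) for blackberry and 0.78 (0.61 to 1.00) for blueberry. Ier3 was also higher in both, at 0.75 (0.67 to 0.84) for blueberry. The blackberry side of this comparison includes the BLA-A library by which the genes were chosen.

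**Figure D3:**
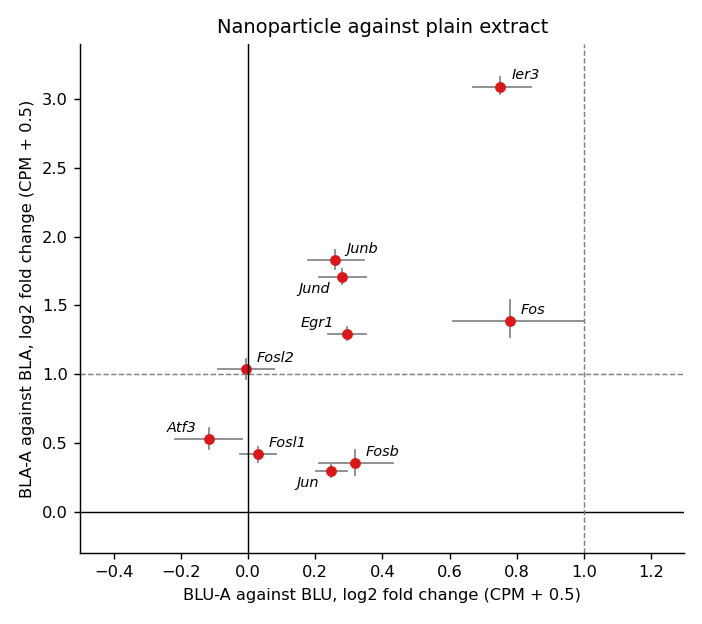
Log2 fold change (CPM + 0.5) of nanoparticle against plain extract of the same berry for each of the 10 genes, 1 point per gene, with blueberry on the horizontal and blackberry on the vertical axis, 95% counting intervals as grey lines and dashed lines at 1. Ier3 lies at 0.75 and 3.09 and Junb at 0.26 and 1.83, while Jun (0.25 and 0.29) and Fosb (0.32 and 0.35) have like values in both berries.

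Over the conditions as samples, 2 tests could be made. Both use the BLA-A library, by which the genes were chosen, so their p-values are a description. Comparing the 4 treated libraries with the untreated one by edgeR's quasi-likelihood test called 4 of the 17647 genes (0.0227%) at an adjusted p under 0.05, with 481 at an unadjusted p under 0.05. None of the 10 genes was among either group, so 0 of 10 were called and DESeq2 also called 0 (19 genes in all). Atf3 came nearest, with a log2 fold change of 1.10 (SE 0.53), and by edgeR's test no adjusted p among the 10 genes was under 0.999. Comparing the 2 nanoparticle libraries with the 2 extract libraries, with berry as a block, called 2 genes (0.0113%), with 975 at an unadjusted p under 0.05. Again 0 of the 10 genes were called, and 5 had an unadjusted p under 0.05. These were Ier3 (log2 fold change 1.93, SE 0.50), Fos (1.11, SE 0.34), Junb (1.05), Jund (1.00) and Egr1 (0.80), each higher in the nanoparticle library of both berries. In BLU-A against BLU, short genes as a class were also higher. Relative to the median of genes of like span, Junb was there at 0.04, Jund at -0.04 and Egr1 at 0.13. Fos was at 0.56 and Ier3 at 0.43 on that scale. By edgeR's test no adjusted p of the 10 was under 0.790. Ier3 alone was called by DESeq2, with an adjusted p of 0.0236, as 1 of 22 genes. This fit has 1 residual degree of freedom.

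Most of these genes are short, all but Fosl2 and Atf3 spanning less than 10000 bases, and short genes as a class differed between the libraries. Protein-coding genes with a mean of at least 10 CPM were sorted by the length of genome that the gene spans. In BLA against untreated cells, the 143 genes spanning up to 2500 bases had a median log2 fold change of -0.67, and the 1389 genes over 100000 bases had one of 0.43. In BLA-A against untreated cells the same classes were at 0.28 and 0.16, and 26.6% of the shortest genes but 2.59% of the longest were higher past the threshold. In BLU against untreated cells these classes were at -0.48 and 0.40. In BLA-A against BLA the medians ran from 0.91 to -0.33, and in BLU-A against BLU from 0.32 to -0.18. The transcripts richest in G and C, over 54.5%, had a median of 0.44 in BLA-A against untreated cells, and the poorest, up to 43.7%, one of -0.08. The part of gene length and base composition in the results was not tested.

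Set beside the genes of their own length class, the 10 genes kept different places. In BLA-A, Atf3 was exceeded by 0.372% of the 3222 genes of its class (30000 to 100000 bases). Fos was exceeded by 2.76% of its class, Ier3 by 2.80%, Fosl2 by 4.39% and Junb by 6.75%. Egr1 was exceeded by 12.5%, Jund by 15.4%, Fosb by 19.4%, Fosl1 by 49.2% and Jun by 57.4%, so the last 2 sat near the middle of their classes. In BLA, where 6 of the 10 genes were below untreated cells, all 6 were above the median of their class, by 0.18 for Fosl1 to 0.53 for Jund. Relative to that median Fos was at 1.22 in BLA and 0.69 in BLA-A against BLA, a change of side of the threshold in both. Egr1 stood at 0.91 in BLA-A against untreated cells on the same scale, and Ier3 stayed at 2.40.

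**Figure D4:**
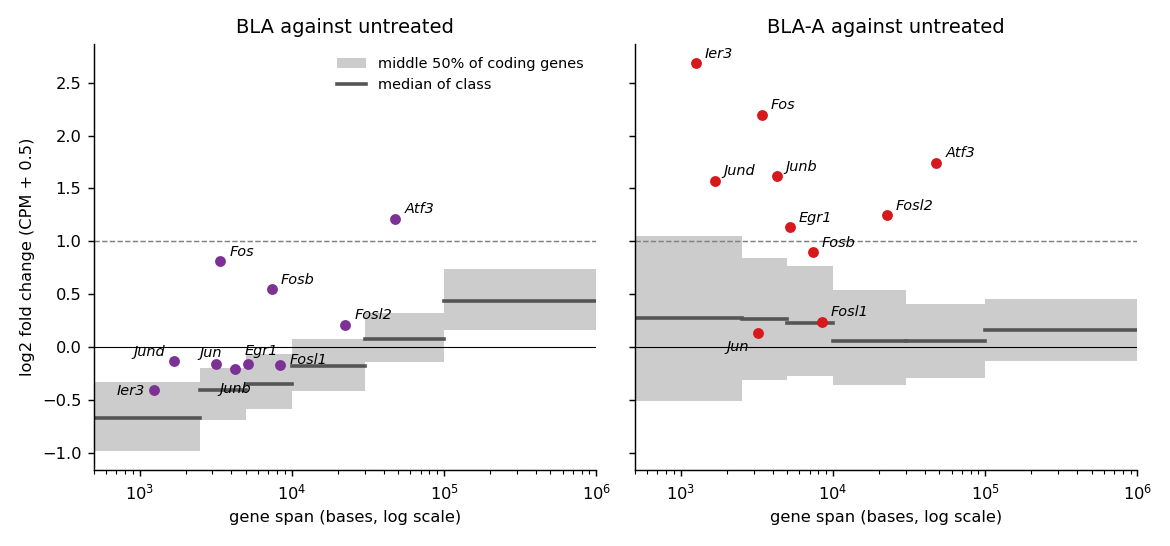
Log2 fold change (CPM + 0.5) against untreated cells by gene span (bases, log axis) in BLA (left) and BLA-A (right), with the 10 genes as points, grey blocks for the middle 50% of coding genes in each span class and a dark line for the class median. The first block holds all genes up to 2500 bases and the last all genes over 100000. The class median climbs from -0.67 to 0.43 with span in BLA, and in BLA-A Ier3 at 2.68, Fos at 2.20 and Atf3 at 1.74 lie far above their blocks.

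Other genes of the pathway were counted from 5 lists drawn up from textbook knowledge, with earlier results of these data known. The lists were set beside all genes and were not matched for gene length. In BLA-A, 26.6% of coding genes spanning up to 2500 bases were higher, and 2.59% of those over 100000. Of 35 other immediate early genes 32 were measured, and 15 were higher and 0 lower past the threshold in BLA-A, where 8.54% of all genes were higher. Their median there was 0.93, beside -0.01 for all genes. Klf2, an endothelial and lymphocyte transcription factor, went from 2.03 CPM in untreated cells to 55.5 in BLA-A, a log2 fold change of 4.47. Rhob, a small GTPase of stress, went from 55.3 to 366 CPM (2.72) and Plk3, a stress kinase, from 11.8 to 63.1 (2.37). Zfp36, which encodes a protein that speeds decay of early mRNAs, went from 37.9 to 185 CPM (2.27). Dusp1, a phosphatase of the MAP kinases, went from 35.3 to 146 CPM (2.04), and Csrnp1, a nuclear factor, from 21.7 to 66.0 (1.58). These genes thus stood higher in the BLA-A library, while BLA put 1 of the 32 past the threshold (Klf2, at 1.08) and BLU and BLU-A put 0.

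Of 25 genes known as AP-1 targets 23 were measured, and 13 were higher and 0 lower in BLA-A, with a median of 1.17, where 8.54% of all genes were higher and their median was -0.01. Ccl2, a monocyte chemokine, went from 3.75 to 27.2 CPM (log2 fold change 2.70) and Hmox1, the heme-degrading stress enzyme, from 3.60 to 22.6. Plaur, the urokinase receptor, went from 58.5 to 168 CPM (1.51). Lif, a cytokine, went from 51.4 to 180 CPM (1.80) and Mmp9, a matrix protease, from 200.4 to 582 (1.54). None of the 23 passed the threshold in BLA, BLU or BLU-A, so the genes of this list past it were again high in 1 library.

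The remaining lists held fewer genes past the threshold. Of 14 measured basic leucine zipper partners 3 were higher in BLA-A, with a list median of 0.21. They were Cebpb, a factor of the acute phase response, from 14.5 to 234.5 CPM (3.97), Atf5, a stress factor, from 10.2 to 40.8 (1.95), and Maff, a small Maf protein, from 20.2 to 44.1 (1.11). Batf3, another partner, was lower past the threshold with BLA, at 0.844 CPM against 2.78 (-1.29). Of 24 upstream factors and kinases 2 were higher and 1 lower in BLA-A, with a median of 0.20. That share of higher genes is no larger than the 8.54% of all genes. Mapk3, which encodes ERK1, went from 53.7 to 119 CPM (1.14) and Rps6ka4, which encodes the kinase MSK2, from 45.9 to 92.6 (1.00). The lower one was Map2k6, a kinase upstream of p38, from 1.69 to 0.259 CPM (-1.53). Map2k5, the kinase upstream of ERK5, was the 1 gene of this list past the threshold in BLA, from 101 to 204 CPM (1.00), where 7.92% of all genes were higher. Of 16 genes that restrain AP-1, 3 were higher and 0 lower in BLA-A, with a median of 0.55, namely Zfp36, Dusp1 and Dusp10 (1.01), a phosphatase of JNK and p38. Dusp2, another phosphatase of the MAP kinases, was lower with BLA, at 0.330 CPM against 2.21 (-1.71). Batf3, Map2k6 and Dusp2 have low counts and were named after their values were seen. Zfp36 and Dusp1 belong also to the immediate early list. BLU and BLU-A put 0 genes of these 3 lists past the threshold.

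**Figure D5:**
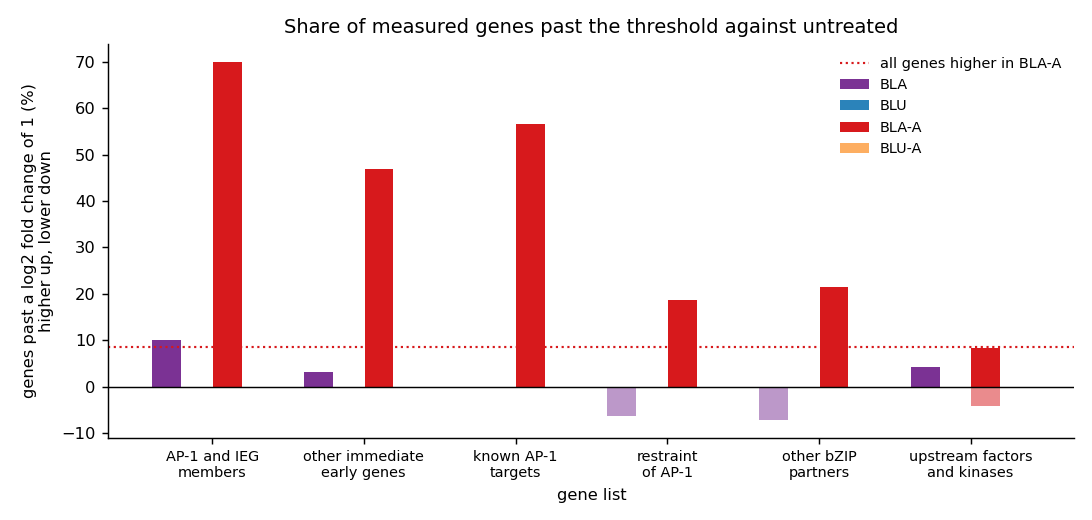
Share of the measured genes of each list past a log2 fold change of 1 in each treatment against untreated cells, as a percent, higher above 0 and, in a lighter shade, lower below 0. The dotted line is the 8.54% of all genes that were higher in BLA-A. In BLA-A 15 of 32 other immediate early genes and 13 of 23 AP-1 targets are higher, and the bars of BLU and BLU-A are at 0 for every list.

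The genes most alike in pattern were found by the Euclidean distance over the 4 log2 fold changes, among 9765 genes with a mean of at least 10 CPM. The 4 values share the untreated library. Closest to Ier3 were Rps10 at a distance of 0.20, Ddit4 at 0.45, Pde6a, Myadm and Tbc1d9. Closest to Fos were P4ha2 at 0.58, Per1, Tsku, 1810037I17Rik and Ackr3, and 0.58 was the longest nearest distance of the 7 genes compared. For Junb they were Plet1os at 0.15, Paf1, Plet1, Jund at 0.18 and Mfsd5. For Jund they were Paf1 at 0.11, Nectin2, Mfsd5, Lsr and Crat, so Paf1 and Mfsd5 were near both. For Fosl2 they were 1110038B12Rik at 0.10, Tbca, Coq10b, Ube2d3 and Wwp2, and for Egr1 Gm16731 at 0.07, Caskin2, Cx3cl1, H2-D1 and Eng. For Atf3 they were 1700007J10Rik at 0.30, Gm30541, Wnt7a, Abtb2 and H2-T23.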

How the data were processed

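Total RNA of 4T1 cells had been depleted of ribosomal RNA and sequenced. The authors deposited raw gene counts (40402 genes, 15 columns), made by aligning reads to GRCm39 with STAR and counting them on whole genes, introns included, with the strand, in OmicsBox. The alignment inputs are listed as merged files, and whether reads of both strands reach a gene was not tested. The submitters' processing notes also name DESeq2 1.36.0. Deposited tables of the authors' own fold changes, p-values and GO enrichment were not used. The genes and lists were chosen with earlier results of these data known.

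The columns of a condition were averaged if chi-square divided by its degrees of freedom, over genes with 10 or more counts on average, stayed below 1.5, which held in all 5. The filter kept genes that reached 1 CPM in any library. CPM and log2 fold changes (pseudocount 0.5) used TMM factors of edgeR 4.0.16 in R 4.3.3. Intervals are exact (Clopper-Pearson) 95% intervals of the 2 counts. A floor of 3 counts was 0.109 to 0.129 CPM. Tests were edgeR's quasi-likelihood test with Benjamini-Hochberg adjustment over all genes, and DESeq2 1.42.0 as an alternative. The edgeR test and the fold threshold were tried on simulated data, and DESeq2 was not. Gene positions, exon lengths and spans came from GENCODE M39 on GRCm39, which covered 92.6% of genes tested. Promoters came from RefSeq on GRCm38.p6, and each of the 8 windows was also found once on its chromosome in GRCm39. From each list, at most 6 genes past the threshold of 1 (log2) in any treatment and with at least 10 CPM in 1 library are named, by size, and 1 gene that this rule names is not reported here. For each of the 10 genes past the threshold, the 5 genes most alike are named. Alternatives covered scaling, filter, pseudocount, columns left out, all 15 columns as samples, and values relative to genes of like span. Python 3.11.15, numpy 2.4.6, pandas 2.3.3 and matplotlib 3.10.9 were used.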

Additional observations from a re-analysis of the deposited data

Results flagged for a closer look

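Atf3 stood on opposite sides of its plain extract in the 2 berries. The nanoparticle was above the extract by a log2 fold change of 0.53 for blackberry, at 146 against 101 CPM, and below it for blueberry at -0.12, at 59.4 against 64.4 CPM. Neither counting interval included 0, at 0.46 to 0.60 for blackberry and -0.22 to -0.02 for blueberry. Relative to the median of genes of like span, Atf3 was at 0.60 for blackberry and -0.07 for blueberry. For blueberry 63.9% of that class had a higher value. The difference between the berries was not tested, as each value rests on 1 library a side.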

How the results depend on the processing

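The number of genes past the threshold kept within 1.5 times of its value in most settings. With DESeq2's median-ratio size factors BLU had 1 gene past it rather than 0 (Ier3). Relative to genes of like span, a setting chosen after seeing the data, BLA had 2 genes rather than 1, with Fos added, and BLA-A against BLA had 2 rather than 6, with Fos (0.69), Fosl2 (0.82), Jund (0.79) and Egr1 (0.75) lost. Among nanoparticles against extracts, Ier3 became the 1 gene called rather than 0 with DESeq2 (adjusted p = 0.0236), with scaling by total counts (edgeR adjusted p = 1.4e-05, 118 genes called in all) and with no filter (edgeR adjusted p = 6.1e-07, 184 called in all). Without the berry term 0 were called. All of these settings use the BLA-A library, by which the genes were chosen, so the p-values are a description. Treated against untreated cells gave 0 of the 10 genes in all 8 alternatives, and without the BLA-A library the smallest adjusted p by edgeR was 0.350. The causes were not tested.

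Scaling by total counts moved the median of all genes by -0.17 in BLA-A against untreated cells and by -0.14 against BLA. Of the genes past the threshold, 28.4% were then higher in BLA-A, beside 40.8% with TMM, and 36.2% beside 47.1% against BLA. Egr1 (0.94) in BLA-A and Fosl2 (0.88) in BLA-A against BLA then fell short. Leaving out the columns of 1 number changed no count. The columns of a condition differ by less than sampling noise, so this could hardly have come out otherwise. With the 15 columns as samples, a gene had also to reach an adjusted p under 0.05 by edgeR's quasi-likelihood test. By that rule 7 genes passed in BLA-A with and without a replicate block, 1 in BLA and 0 in BLU and BLU-A. Columns this alike give a p-value that measures no spread between cultures, so this is no check of the counts. The numbers did not pair the columns, as the mean correlation of same-numbered columns was -0.000997 over 30 pairs (-0.0216 to 0.0153). As all values rest on 1 library a condition, the spread between cultures is unknown.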
